A study of Mus musculus with 20 samples.

Results

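The genes described here are 32 mouse genes of glucose uptake, glycolysis, lactate handling and the response to low oxygen, of 30265 genes in each count table. They were taken as a named list, chosen with earlier results of these data known, and matched by symbol. All 32 were found in both tables. They comprise 2 glucose transporters, 15 glycolytic enzymes, 4 genes of lactate production and export, 2 regulators of flux, 3 genes of oxygen sensing and 6 genes that respond to low oxygen. Polyadenylated RNA was read from 20 libraries from 2 experiments that changed the level of Klf5, a transcription factor of the Krüppel-like family. In the first, 6 single E4.5 embryos (late blastocysts) had been treated with an siRNA against Klf5 and 10 with a scramble siRNA, with 1 library per embryo. The labels write their strain as C57BL/5J, and all 16 were grown at 37 °C in KSOM with 1 mg/ml BSA, 5% CO2 and normoxia. In the second, embryonic stem cells (ESCs) derived from C57BL/6J mice overexpressed Klf5 (2 libraries) or GFP (2 libraries), all kept at 37 °C with 1000 u/ml LIF on irradiated embryonic fibroblast feeders. The labels name no promoter or vector for either transgene and do not say whether the ESC replicates were separate cultures, so ESC p-values measure only the spread between these libraries, which may be technical. The embryo comparison addresses which transcripts change when Klf5 is lowered, and the ESC comparison which change when it is raised.

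Glycolysis splits glucose into pyruvate in the cytosol, and lactate dehydrogenase and monocarboxylate transporters dispose of the pyruvate as lactate. The mouse embryo relies on pyruvate and lactate at first and takes up more glucose as the blastocyst forms, when Slc2a3 protein lies on the outer face of the trophectoderm. Many of these genes are also targets of the hypoxia-inducible factor (HIF), whose alpha subunit is hydroxylated by Egln prolyl hydroxylases and degraded while oxygen is present.

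Depth and label checks came before the comparisons. Library totals, in units of 1e6 estimated counts, were 14.9 to 23.4 in Klf5 siRNA embryos, 14.7 to 24.9 in scramble embryos, 34.6 and 37.5 in Klf5 ESCs and 26.8 and 36.9 in GFP ESCs. Klf5 itself stood at 80.8 (lowest), 156 (median) and 543 (highest) CPM (counts per 1e6 scaled counts) in Klf5 siRNA embryos, against 382, 472 and 592 CPM in scramble embryos. The highest value belonged to the embryo labelled Klf5 siRNA 1, which lay within the scramble range, and the other 5 lay below it. In ESCs Klf5 stood at 942 and 882 CPM with the Klf5 transgene and at 80.5 and 70.8 CPM with GFP. Mitochondrial transcripts took 2.45% to 10.3% of counts in Klf5 siRNA embryos (median 4.23%) and 4.34% to 18.5% in scramble embryos (median 12.6%). Ribosomal protein genes took 7.77% to 14.1% in Klf5 siRNA embryos (median 10.7%) and 3.81% to 9.30% in scramble embryos (median 7.13%). The library numbers in the labels put every scramble embryo before every Klf5 siRNA embryo, so siRNA and library number cannot be told apart. Within their groups 2 pairs of embryos stood apart. Scramble embryos 5 and 6 were the 2 highest of 10 for 9 of the 28 tested genes (32.1%, against 17.5% of all tested genes), 7 of which were glycolytic enzymes. Klf5 siRNA embryos 2 and 4 were the 2 lowest of 6 for 6 of the 28 (21.4%, against 12.8% of all tested genes).

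In Klf5 siRNA embryos the list leaned downward, most of all in a few genes outside the enzymatic steps of glycolysis. Txnip, an arrestin-like inhibitor of glucose uptake, fell 24.5-fold, Vegfa, the vascular growth factor gene, 8.12-fold, and Slc16a1, a lactate and pyruvate transporter gene, 4.75-fold. Ndrg1, a stress gene induced by low oxygen in many cells, fell 4.02-fold. Slc2a1, the broadly expressed glucose transporter gene, was the 1 member that rose, 2.19-fold. Of 28 genes tested, 1 rose and 9 fell at an edgeR quasi-likelihood adjusted p below 0.05, which is 35.7% of the tested members. Among all 12385 genes tested in embryos 19.8% were called, 12% higher and 7.74% lower. The median log2 fold change of the tested members was −0.70, against −0.01 over all tested genes, with 7 members above 0 and 21 below. The list was chosen with earlier results of these data known, so its difference from all tested genes cannot be told apart from that choice. In a second list of other genes of these pathways, 73 were tested in embryos. Of these 17.8% were called, and their median log2 fold change was 0.22. Groups did not overlap for 5 of 28 members (Slc16a1, Egln1, Vegfa, Txnip and Ndrg1), against 4.81% of all tested genes. Pfkm, Slc16a3, Pfkfb3 and Egln3 were too low to be tested.

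**Figure D1:**
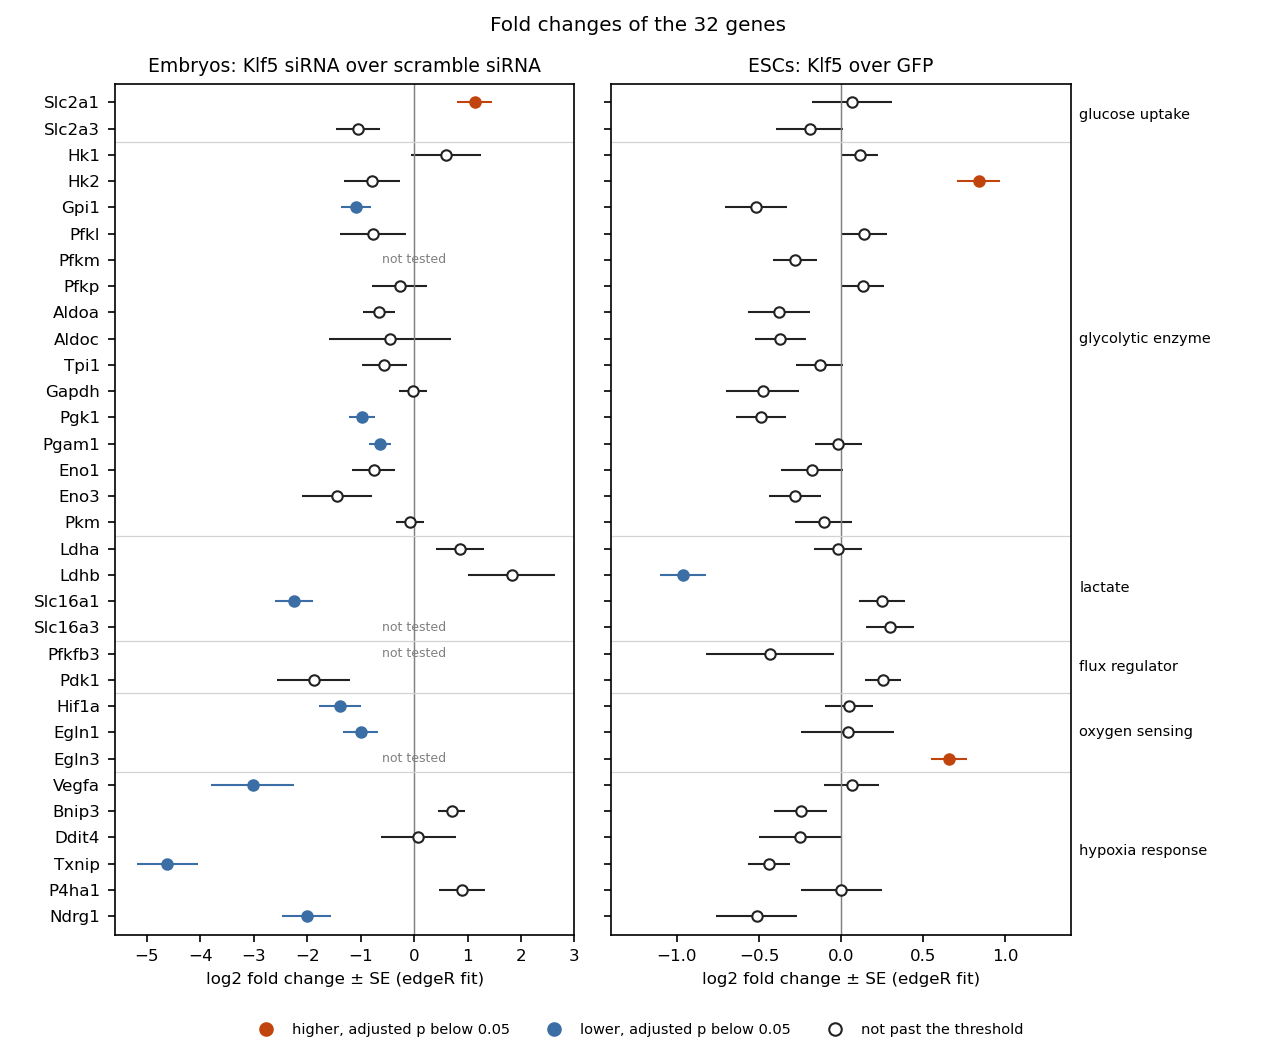
Fitted log2 fold change with its standard error for the 32 genes, grouped by role. Left, Klf5 siRNA over scramble siRNA embryos (6 and 10), right, Klf5 over GFP ESCs (2 and 2); filled points passed an adjusted p of 0.05. In embryos 9 filled points lie left of 0 and Slc2a1 lies right of it, while in ESCs only Hk2, Egln3 and Ldhb are filled, on a narrower axis.

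Lineage markers were read beside these genes, where 7.74% of all tested genes were called lower and 12% higher. Of 9 trophectoderm markers 6 fell in Klf5 siRNA embryos (Cdx2, Elf5, Eomes, Gata3, Krt8 and Krt18) and none rose. Their summed level ran from 199 to 2435 CPM (median 953) in Klf5 siRNA embryos and from 2147 to 8493 CPM (median 3158) in scramble embryos, and none of the 9 was at 0 in every embryo of a group. Of 7 primitive endoderm markers 2 fell (Sox17 and Pdgfra), with sums of 179 to 484 CPM (median 270.2) in Klf5 siRNA embryos and 327 to 595 CPM (median 466.1) in scramble embryos. Of 8 epiblast markers 1 fell (Fgf4), with sums of 239 to 545 CPM (median 357) against 254 to 637 CPM (median 429). The list was mixed, with Pou5f1 (2.17-fold, adjusted p = 0.0818) and Nanog (1.85-fold, adjusted p = 0.0696) fitted higher without passing. Sox2, Zfp42, Esrrb, Klf4 and Tdgf1 were fitted lower, also without passing. Of 10 fibroblast markers 3 could be tested, and 2 rose, Thy1 19.1-fold (adjusted p = 0.00621) and Vim 5.51-fold (adjusted p = 0.0394). Both were highest in Klf5 siRNA embryo 5, at 21.9 and 138 CPM. The fibroblast sums ran from 30.7 to 193 CPM (median 62.0) in Klf5 siRNA embryos and from 31.0 to 108 CPM (median 60.8) in scramble embryos, and 4 of the 10 markers were at 0 in every Klf5 siRNA embryo and 2 in every scramble embryo. The part of these shifts in the results below was not tested. In whole embryos fewer cells of a type and less RNA per cell cannot be told apart.

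Both glucose transporters were measured in every embryo. Slc2a1 stood at 12.0 (lowest), 34.5 (median) and 61.6 (highest) CPM in Klf5 siRNA embryos, against 7.14, 16.3 and 22.5 CPM in scramble embryos. Embryos 1, 2, 4 and 5 of the Klf5 siRNA group lay above every scramble embryo and embryos 3 and 6 within their range, so the groups overlapped. The log2 fold change was 1.13 ± 0.33 (SE, edgeR adjusted p = 0.0193). That call was lost without Klf5 siRNA embryo 5 (0.83, adjusted p = 0.0822), without embryos 2 and 4 (0.96, adjusted p = 0.0865), and with the mitochondrial percent (adjusted p = 0.1205) or the ribosomal percent (adjusted p = 0.247) as a covariate. Slc2a3, the high-affinity transporter gene, stood at 17.0, 208 and 245 CPM in Klf5 siRNA embryos, against 226, 297 and 487 CPM in scramble embryos. Its low values were those of embryo 4 at 17.0 CPM, embryo 2 at 45.1 CPM and embryo 3 at 183 CPM, and the difference did not pass the threshold (log2 fold change −1.05 ± 0.42 SE, adjusted p = 0.0814).

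The balance of the 2 transporters within an embryo, which does not depend on library scaling, differed between the groups when all embryos were used. The log2 ratio of Slc2a1 to Slc2a3 counts averaged −1.94 ± 2.13 (SD, n = 6) in Klf5 siRNA embryos and −4.46 ± 0.74 (SD, n = 10) in scramble embryos. The difference of 2.51 had a two-sided exact permutation p of 0.00175 over 8008 arrangements, and 0.0157 adjusted over the 9 isozyme pairs compared. All 6 Klf5 siRNA embryos lay above the scramble mean and 4 of 6 above every scramble embryo. The highest were embryos 4 (1.34) and 2 (−0.27), the 2 with the least Slc2a3. Without them the Klf5 siRNA mean was −3.18 ± 0.98 (SD, n = 4) and the difference 1.27, with an exact permutation p of 0.0200 that missed the threshold when adjusted over the 9 pairs (0.1798). Per length, Slc2a1 made up 5.92% to 75.5% (median 18.8%) of the transcripts of the 2 genes in Klf5 siRNA embryos and 2.68% to 9.68% (median 5.79%) in scramble embryos. No other of the 9 pairs passed. Hexokinase Hk2 over Hk1 differed by −1.98 (exact permutation p = 0.0544, adjusted 0.163) and Egln3 over Egln1 by 2.11 (exact permutation p = 0.0350, adjusted 0.157). Egln3 had a median of 1 count over the embryos, so its ratio rests mostly on the 1 added to each count and on Egln1.

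**Figure D2:**
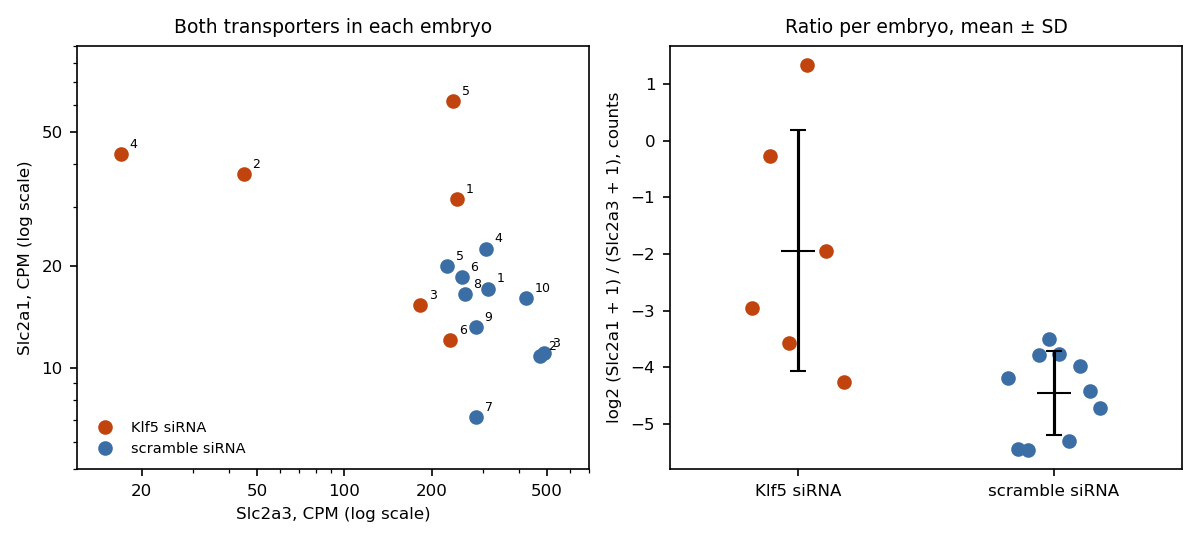
Left, Slc2a1 against Slc2a3 CPM in each embryo on log axes, numbered by embryo; right, the log2 ratio of their counts (each count plus 1) with mean and SD, Klf5 siRNA (n = 6) left of scramble (n = 10). Klf5 siRNA embryos 4 and 2 stand far left, with Slc2a3 at 17.0 and 45.1 CPM, while embryos 5 and 1 have Slc2a3 near the lower scramble values and Slc2a1 at 61.6 and 31.6 CPM.

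Of 14 glycolytic enzymes tested in embryos, 3 fell and none rose (21.4%). Of all tested genes 19.8% were called in either direction and 7.74% were called lower. Of the 14 enzymes 13 had a fitted log2 fold change below 0. Gpi1, glucose-6-phosphate isomerase, stood at 22.0, 31.6 and 36.9 CPM in Klf5 siRNA embryos, against 33.6, 53.6 and 112 CPM in scramble embryos. Its 6 Klf5 siRNA values were close together, 4 of them below every scramble embryo, and it fell 2.13-fold (log2 fold change −1.09 ± 0.28 SE, edgeR adjusted p = 0.00995). Pgk1, phosphoglycerate kinase, an ATP-making enzyme of glycolysis, stood at 32.8, 59.1 and 88.0 CPM in Klf5 siRNA embryos, against 85.9, 112 and 162 CPM in scramble embryos. Only embryo 5 of the Klf5 siRNA group reached the scramble range, and Pgk1 fell 1.96-fold (−0.97 ± 0.24, adjusted p = 0.00858). Pgam1, the mutase of the next step, stood at 63.2, 74.2 and 124 CPM in Klf5 siRNA embryos, against 87.0, 131 and 163 CPM in scramble embryos. It fell 1.56-fold with overlapping groups (−0.64 ± 0.21, adjusted p = 0.0344). Its call was lost when any of 8 embryos was left out (adjusted p up to 0.0823) and without Klf5 siRNA embryos 2 and 4 together. The Pgam1 call was lost too with the mitochondrial percent as a covariate (adjusted p = 0.0580). With the ribosomal percent as a covariate all 3 enzymes missed the threshold (Gpi1 adjusted p = 0.177, Pgk1 0.0836, Pgam1 0.254).

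The other enzymes did not pass in embryos. Hk2, the inducible hexokinase, stood at 463 CPM in the embryo labelled Klf5 siRNA 1 and at 26.7 to 233 CPM in the other 5, against 105 to 400 CPM in scramble embryos. Its log2 fold change was −0.78 ± 0.53 (adjusted p = 0.314), and −1.56 (adjusted p = 0.0345) without that embryo, whose Klf5 was at the scramble level. Hk1, the ubiquitous hexokinase, was low in both groups, at 0.186 to 4.64 CPM in Klf5 siRNA embryos and 0.304 to 3.34 CPM in scramble embryos. The phosphofructokinases Pfkl (−0.77, adjusted p = 0.416) and Pfkp (−0.27, adjusted p = 0.757) catalyse the committed step. Pfkl was lowest in Klf5 siRNA embryos 2 and 4, at 0.437 and 0.0560 CPM, against 5.45 to 8.82 CPM in the other 4 and 3.04 to 12.5 CPM in scramble embryos. Pfkm, the muscle form, was at 0 in each of the 6 Klf5 siRNA embryos and in 6 of the 10 with scramble siRNA. Aldolase Aldoa (−0.65, adjusted p = 0.135), triose phosphate isomerase Tpi1 (−0.56, adjusted p = 0.378) and enolase Eno1 (−0.76, adjusted p = 0.198) had their 2 highest scramble values in embryos 5 and 6. Without those 2 embryos the fold change of Aldoa was −0.37, of Tpi1 −0.23 and of Eno1 −0.11, none past the threshold. Eno3, the muscle enolase (−1.45, adjusted p = 0.130), and Aldoc, the brain aldolase (−0.44, adjusted p = 0.823), were low. Gapdh, the dehydrogenase often used as a reference gene, averaged 1389 ± 510 CPM (SD, n = 6) in Klf5 siRNA embryos and 1410 ± 448 CPM (SD, n = 10) in scramble embryos (−0.02 ± 0.27, adjusted p = 0.969). Pyruvate kinase Pkm averaged 71.6 ± 29.6 and 75.2 ± 19.5 CPM in Klf5 siRNA and scramble embryos (−0.07 ± 0.26, adjusted p = 0.881). The summed level of the 15 enzymes ran from 1032 to 3230 CPM (median 2609) in Klf5 siRNA embryos and from 2341 to 5142 CPM (median 2738) in scramble embryos.

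Of 3 lactate genes tested in embryos, 1 fell and the other 2 had fitted fold changes above 0. Slc16a1 stood at 14.3, 29.7 and 41.9 CPM in Klf5 siRNA embryos, against 55.9, 137 and 224 CPM in scramble embryos. The groups did not overlap, and the lowest scramble values were those of embryos 6 and 5. It fell 4.75-fold (log2 fold change −2.25 ± 0.35 SE, edgeR adjusted p = 0.000278) and was called under every alternative run. Ldha, which makes lactate from pyruvate, stood at 39.3, 76.8 and 138 CPM in Klf5 siRNA embryos, against 3.71, 44.5 and 89.7 CPM in scramble embryos (0.85 ± 0.45, adjusted p = 0.192). Ldhb, which favours the reverse step, stood at 1.01, 4.32 and 11.5 CPM in Klf5 siRNA embryos, against 0, 1.16 and 5.27 CPM in scramble embryos (1.82 ± 0.81, adjusted p = 0.122). Slc16a3, the exporter of glycolytic cells, was at 0 in 4 of 6 Klf5 siRNA embryos and reached at most 2.16 CPM in scramble embryos. Pdk1, the kinase that closes pyruvate dehydrogenase, averaged 1.52 ± 1.71 CPM (SD, n = 6) in Klf5 siRNA embryos and 5.57 ± 2.50 CPM (SD, n = 10) in scramble embryos, with 4 of 6 below every scramble embryo. It missed the threshold (−1.88 ± 0.69, adjusted p = 0.0600), with adjusted p between 0.0114 and 0.245 over the alternatives. Pfkfb3, which makes the activator of phosphofructokinase, was not tested, and 4 of 6 Klf5 siRNA embryos, at 1.37 to 1.48 CPM for 3 of them and 0.692 CPM in embryo 3, lay above the highest scramble value of 0.506 CPM.

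Both tested genes of oxygen sensing fell. Hif1a, the oxygen-regulated HIF subunit gene, stood at 3.16, 5.84 and 18.1 CPM in Klf5 siRNA embryos, against 12.5, 14.0 and 32.3 CPM in scramble embryos. Embryo 3 was the 1 Klf5 siRNA embryo within the scramble range, and Hif1a fell 2.61-fold (log2 fold change −1.38 ± 0.39 SE, edgeR adjusted p = 0.0171). Its call was lost without Klf5 siRNA embryos 2 and 4 (−1.16, adjusted p = 0.0906) and with the mitochondrial (−1.03, adjusted p = 0.169) or ribosomal percent (−0.95, adjusted p = 0.1801) as a covariate. Egln1, the main prolyl hydroxylase gene, stood at 15.9, 83.3 and 126 CPM in Klf5 siRNA embryos, against 139.9, 152 and 218 CPM in scramble embryos. The groups did not overlap, with embryos 2 and 4 at 15.9 and 37.8 CPM the lowest, and it fell 2.00-fold (−0.999 ± 0.33, adjusted p = 0.0368). The Egln1 call was lost when any of 7 embryos was left out (adjusted p up to 0.0939) and without Klf5 siRNA embryos 2 and 4 together. It was lost too with the ribosomal percent as a covariate (−0.94, adjusted p = 0.165). Egln3, the hydroxylase gene that low oxygen itself induces, held at most 1.48 CPM in a Klf5 siRNA embryo and 1.13 CPM in a scramble embryo.

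The 6 genes of the response to low oxygen did not move as a block, since 3 fell and 3 had fitted fold changes above 0. Txnip stood at 0.2799, 2.32 and 3.18 CPM in Klf5 siRNA embryos, against 16.9, 34.7 and 103 CPM in scramble embryos. The groups did not overlap, and the highest Klf5 siRNA value came from embryo 1, whose Klf5 was at the scramble level. The Txnip fall of 24.5-fold (log2 fold change −4.62 ± 0.57 SE, edgeR adjusted p = 4.55e-05) was the largest among the 28 tested members and was called under every alternative run. Vegfa stood at 0, 0.582 and 1.14 CPM in Klf5 siRNA embryos, against 2.48, 3.94 and 5.51 CPM in scramble embryos, again without overlap. It rested on 49 counts in all 6 Klf5 siRNA embryos, 2 of which held none, and 904 counts in the 10 scramble embryos. The fitted fall was 8.12-fold (−3.02 ± 0.77, adjusted p = 0.00972). Ndrg1 stood at 13.8, 58.9 and 125 CPM in Klf5 siRNA embryos, against 131, 204 and 639 CPM in scramble embryos. The groups met closely, with Klf5 siRNA embryos 5 and 6 at 125 and 121 CPM, and Ndrg1 fell 4.02-fold (−2.01 ± 0.46, adjusted p = 0.00484). Bnip3, a mitophagy receptor gene, stood at 339, 623 and 1029 CPM in Klf5 siRNA embryos, against 256, 343 and 537 CPM in scramble embryos. It missed the threshold (0.71 ± 0.25, adjusted p = 0.0533) and passed it without scramble embryos 5 and 6 (0.79, adjusted p = 0.0282). P4ha1, a collagen hydroxylase subunit gene (0.90 ± 0.44, adjusted p = 0.159), and Ddit4, an inhibitor of mTOR signalling (0.08 ± 0.70, adjusted p = 0.955), did not pass.

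**Figure D3:**
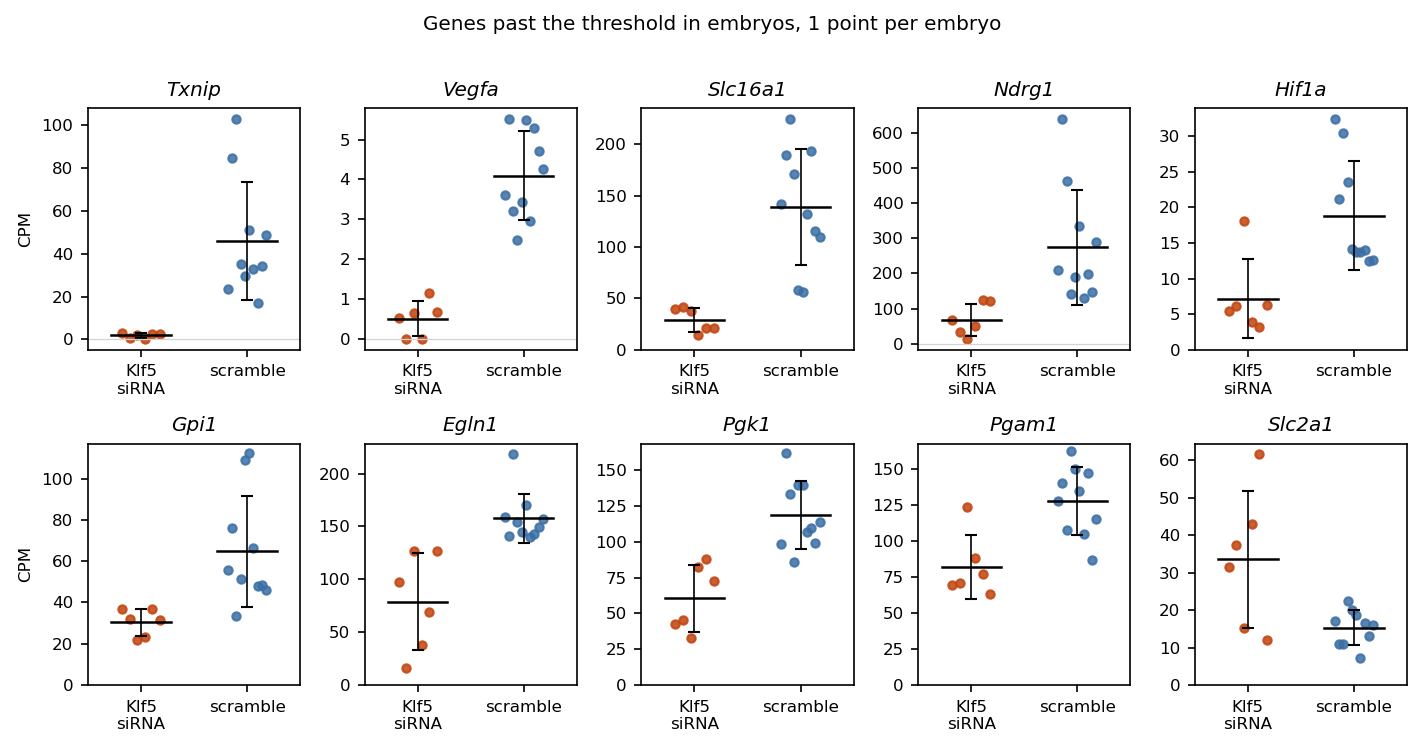
CPM of the 10 genes that passed the threshold in embryos, 1 point per embryo, with mean and SD, Klf5 siRNA (n = 6) left of scramble (n = 10); each panel has its own axis from 0. For Txnip, Vegfa, Slc16a1, Ndrg1 and Egln1 every Klf5 siRNA point lies below every scramble point, while Slc2a1 is the panel with higher Klf5 siRNA values.

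The genes without overlap are those where no Klf5 siRNA embryo entered the scramble range. They therefore cannot show whether the embryo labelled Klf5 siRNA 1, with Klf5 at the scramble level, resembled the rest of its group. For these genes that embryo held 3.18 CPM of Txnip, 0.515 CPM of Vegfa, 39.3 CPM of Slc16a1, 67.1 CPM of Ndrg1 and 97.1 CPM of Egln1. Without it 11 members were called, 2 higher and 9 lower, of which 8 were among the 10 called with it. Without Klf5 siRNA embryos 2 and 4, 7 were called, all lower, and without scramble embryos 5 and 6, 12 were called, 2 higher and 10 lower. With the mitochondrial percent as a covariate 10 were called, all lower, of which 7 were among the 10 above. With the ribosomal percent as a covariate 8 were called, 1 higher (Bnip3) and 7 lower, of which 4 were (Slc16a1, Vegfa, Txnip and Ndrg1).

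**Figure D4:**
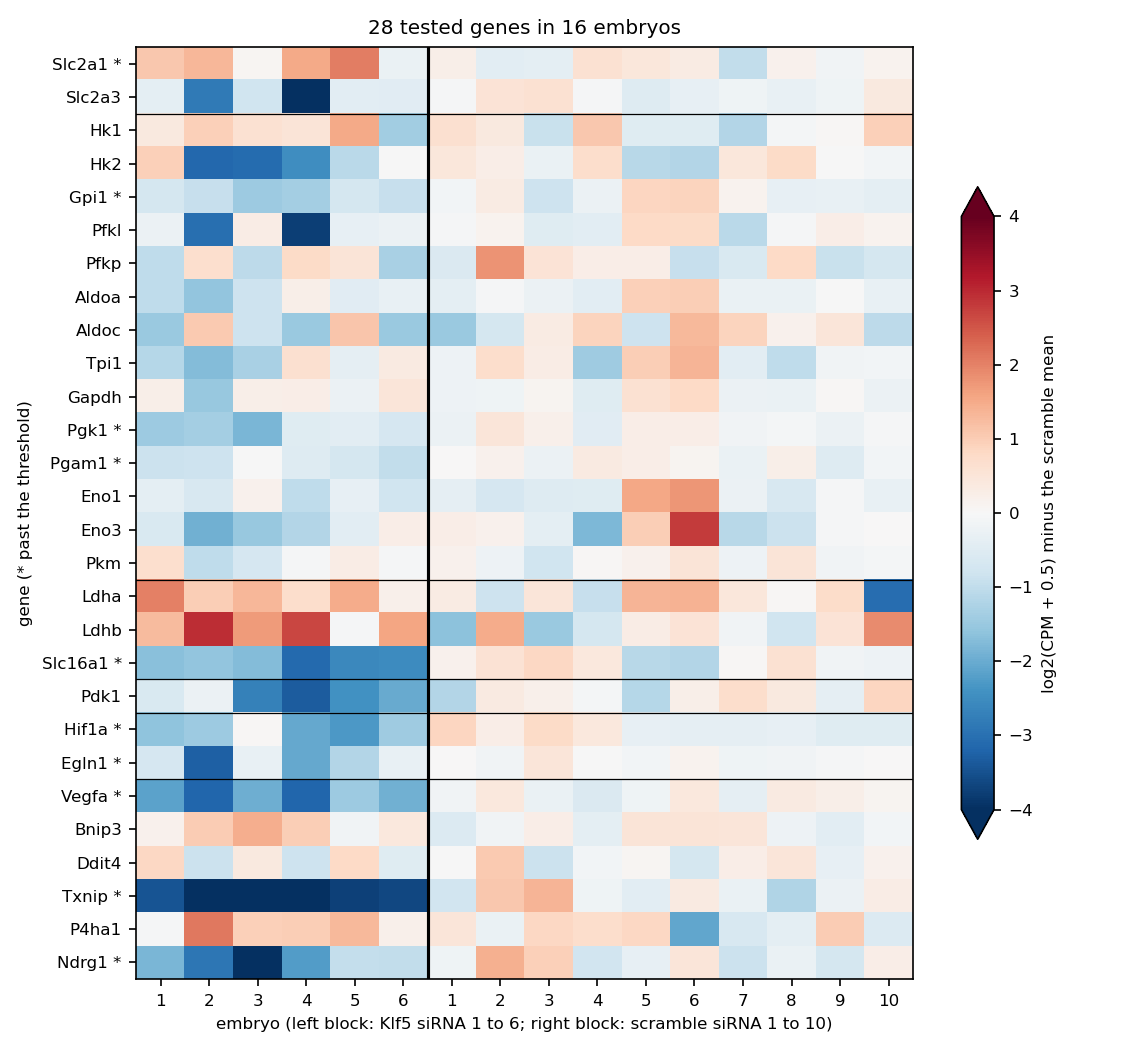
Each cell is log2(CPM + 0.5) of a tested gene in an embryo minus its scramble mean, with blue below and red above, Klf5 siRNA embryos 1 to 6 left and scramble embryos 1 to 10 right; colours saturate at 4 log2 units. Txnip, Vegfa, Slc16a1 and Ndrg1 are blue across all 6 Klf5 siRNA embryos, Slc2a3 and Pfkl are dark in embryos 2 and 4 alone, and 7 of 14 enzymes have their 2 highest scramble values in embryos 5 and 6.

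Promoter sequences of the 5 falling genes with the smallest p that had an entry, and of Slc2a1, are shown to set the motifs of the low-oxygen response beside the direction of change. They are the 250 bases before the RefSeq transcription start on GRCm38.p6, 5′ to 3′ on the gene's strand. They lie at chr3:96557707-96557956 (plus strand) for Txnip, chr3:104638414-104638663 (plus) for Slc16a1, chrX:106186850-106187099 (plus) for Pgk1, chr17:46032378-46032627 (minus) for Vegfa, chr7:34230337-34230586 (minus) for Gpi1 and chr4:119108495-119108744 (plus) for Slc2a1. Capitals mark the HIF core ACGTG or GCGTG and the E-box CACGTG, which overlaps ACGTG, on either strand, so that CACGT and CACGC are the cores read on the other strand.
Txnip: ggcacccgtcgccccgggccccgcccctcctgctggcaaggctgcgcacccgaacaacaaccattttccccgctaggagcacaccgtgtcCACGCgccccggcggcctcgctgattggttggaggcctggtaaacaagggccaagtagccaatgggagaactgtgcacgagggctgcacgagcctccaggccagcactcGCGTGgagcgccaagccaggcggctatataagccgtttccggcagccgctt
Slc16a1: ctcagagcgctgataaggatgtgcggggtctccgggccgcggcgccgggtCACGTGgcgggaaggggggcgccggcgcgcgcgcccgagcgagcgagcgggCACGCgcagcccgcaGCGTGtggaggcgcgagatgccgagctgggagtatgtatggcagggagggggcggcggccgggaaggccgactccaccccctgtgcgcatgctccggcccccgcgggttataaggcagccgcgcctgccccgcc
Pgk1: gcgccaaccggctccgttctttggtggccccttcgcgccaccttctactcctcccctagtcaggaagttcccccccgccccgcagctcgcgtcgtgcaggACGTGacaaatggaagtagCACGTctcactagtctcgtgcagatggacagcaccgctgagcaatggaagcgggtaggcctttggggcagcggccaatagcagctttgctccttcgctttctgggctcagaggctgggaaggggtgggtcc
Vegfa: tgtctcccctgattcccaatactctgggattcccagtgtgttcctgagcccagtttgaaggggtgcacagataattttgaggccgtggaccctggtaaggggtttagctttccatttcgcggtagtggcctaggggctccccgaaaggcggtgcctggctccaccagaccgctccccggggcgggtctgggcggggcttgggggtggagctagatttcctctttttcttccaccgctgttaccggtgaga
Gpi1: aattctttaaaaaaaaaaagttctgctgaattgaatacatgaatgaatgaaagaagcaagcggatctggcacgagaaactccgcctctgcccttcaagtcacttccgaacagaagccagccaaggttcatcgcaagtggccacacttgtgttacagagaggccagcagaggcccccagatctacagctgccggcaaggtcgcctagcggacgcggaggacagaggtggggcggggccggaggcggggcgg
Slc2a1: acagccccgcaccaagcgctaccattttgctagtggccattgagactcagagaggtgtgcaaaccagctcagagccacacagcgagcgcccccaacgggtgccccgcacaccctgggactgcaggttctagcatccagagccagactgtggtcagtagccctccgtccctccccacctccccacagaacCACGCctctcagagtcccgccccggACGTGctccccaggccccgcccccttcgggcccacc
The Slc16a1 window held 3 marked stretches, 1 of them an E-box, whose letters read as ACGTG on each strand, so that it counted as 2 of the window's 4 HIF cores. The Txnip, Pgk1 and Slc2a1 windows held 2 cores each, and the Vegfa and Gpi1 windows none. The nearest core lay 46 bases before the start in Txnip and 31 in Slc2a1. Of 30 members with a promoter entry, 24 (80.0%) held a HIF core in this window, against 38.6% of 32851 mouse promoters of the same length. Each member was read at its farthest upstream start only, while the shares of all promoters count every entry. The list was also chosen to hold genes of the low-oxygen response. Of 9 members called in embryos with an entry, 7 did, among them genes that fell and the gene that rose. The GC-box GGGNGGGG, the kind of site that Krüppel-like factors recognise, was found on either strand in 19 of 30 members (63.3%) and in 30.8% of all promoters, and the E-box in 5 members and 6.02% of all. A match is a description of the letters and not evidence of a bound site.

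In ESCs 3 of the 32 genes passed the test. Hk2 rose 1.79-fold with Klf5 and Egln3 1.58-fold, while Ldhb fell 1.95-fold. All 32 members were tested, so the called share was 9.38%. Over all 15968 genes tested in ESCs 2.77% were called, 1.67% higher and 1.11% lower. Here too the difference from all genes cannot be told apart from the choice of the list with earlier results known. The median log2 fold change of the members was −0.12, with 13 above 0 and 19 below, against 0.00 over all tested genes. The 2 groups did not overlap for 15 of 32 members, against 56.4% of all tested genes.

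Hk2 stood at 395 and 327 CPM in the Klf5 libraries and at 196 and 208 CPM in the GFP libraries (log2 fold change 0.84 ± 0.13 SE, edgeR adjusted p = 0.0326). Egln3 stood at 96.9 and 96.3 CPM with Klf5 and at 59.5 and 63.1 CPM with GFP (0.66 ± 0.11, adjusted p = 0.0356). Ldhb, which converts lactate to pyruvate, stood at 257 and 206 CPM with Klf5 and at 434 and 469 CPM with GFP (−0.96 ± 0.14, adjusted p = 0.0303). In each of the 3 genes the libraries of a group lay closer to each other than to the other group. With 1 library left in a group the spread comes from the other group alone, and the lone library is assumed to vary like it. In such fits the 3 calls were kept without either Klf5 library. They missed the threshold without GFP 1 (adjusted p = 0.204 for Hk2, 0.238 for Egln3 and 0.1301 for Ldhb) and without GFP 2 (0.0707, 0.0898 and 0.0626). The log2 fold changes moved little, to 0.80 for Hk2, 0.61 for Egln3 and −1.02 for Ldhb without GFP 1 and to 0.88, 0.70 and −0.91 without GFP 2.

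**Figure D5:**
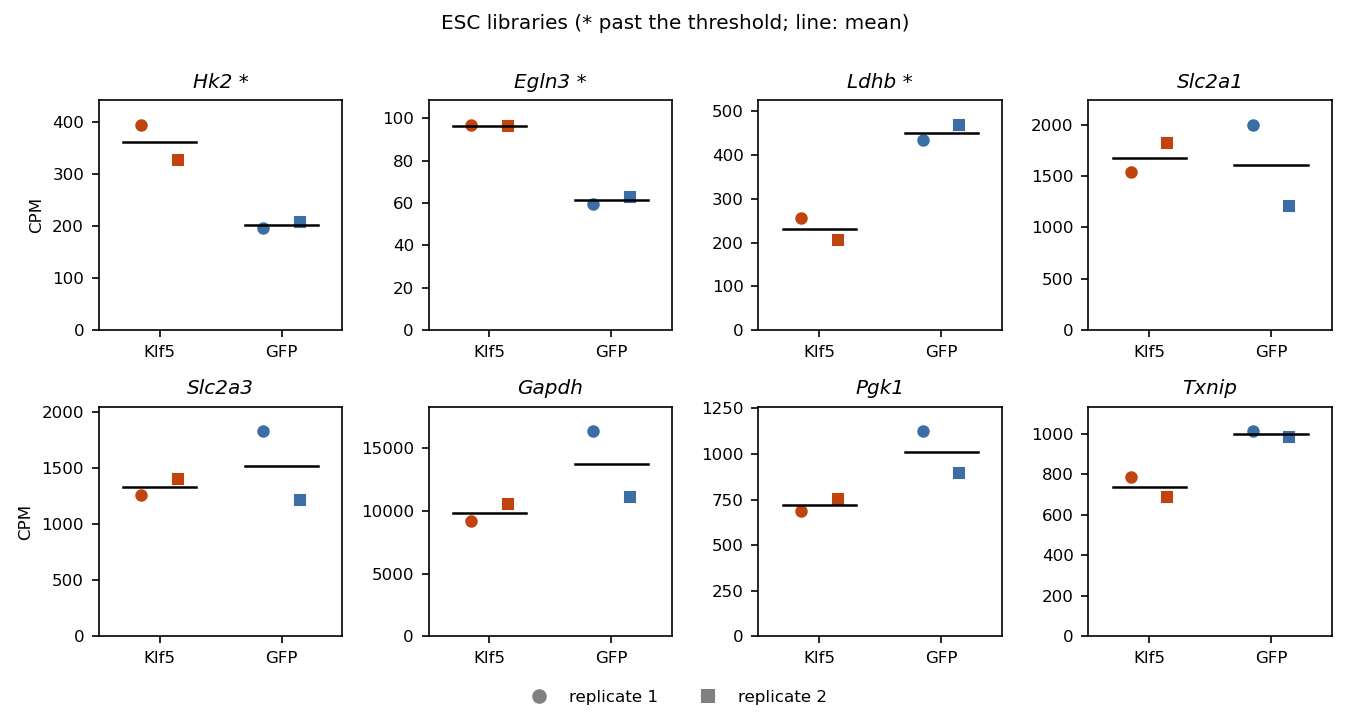
CPM in the 4 ESC libraries, Klf5 left of GFP (n = 2 each), circles for replicate 1, squares for replicate 2 and lines for the mean, with axes from 0. The groups stand apart for Hk2, Egln3 and Ldhb, which passed the threshold, while for Slc2a1 the GFP libraries, at 1998 and 1210 CPM, lie on either side of the Klf5 libraries.

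GFP 1 and Klf5 1 stood at the ends of the range for many members. GFP 1 was the highest of the 4 libraries for 18 of 32 members (56.2%, against 29.7% of all tested genes), and Klf5 1 was the lowest for 16 (50%, against 27.9%), 11 of them glycolytic enzymes. Slc2a1 stood at 1539 and 1821 CPM with Klf5 and at 1998 and 1210 CPM with GFP (0.07 ± 0.24, adjusted p = 0.893). Slc2a3 stood at 1265 and 1407 CPM with Klf5 and at 1832 and 1218 CPM with GFP (−0.19 ± 0.20, adjusted p = 0.612). For both transporters the difference between the GFP libraries exceeded that between the groups. Of the 15 enzymes Hk2 alone passed, and 11 had fold changes below 0. Pgk1 stood at 689 and 751 CPM with Klf5 and at 1124 and 895 CPM with GFP (−0.49 ± 0.15, adjusted p = 0.116), and Gpi1 at 1347 and 1549 CPM against 2415 and 1735 CPM (−0.52 ± 0.19, adjusted p = 0.158). Gapdh stood at 9175 and 10561 CPM with Klf5 and at 16361 and 11138 CPM with GFP (−0.48 ± 0.22, adjusted p = 0.245). Near-identical copies (68 of Gapdh, 2 of Pgk1 and 1 of Pgam1) have identifiers of their own, and their summed counts in ESCs came to 16.4%, 35.9% and 29.9% of the separate count of the gene they resemble, so the split of reads between gene and copies is uncertain. In embryos the copies came to 1.36%, 0% and 1.04% of the gene's count, and adding the copies to each gene left 3 members called in ESCs and 10 in embryos.

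The remaining ESC members had log2 fold changes from −0.52 (Ndrg1, adjusted p = 0.278) to 0.30 (Slc16a3, adjusted p = 0.273). Txnip stood at 786 and 688 CPM with Klf5 and at 1013 and 983 CPM with GFP (−0.44 ± 0.13, adjusted p = 0.107). DESeq2 called it, with Pgk1 and Gpi1, at adjusted p of 0.0116, 0.0200 and 0.0431. Slc16a1 (0.25), Vegfa (0.07), Hif1a (0.05) and Egln1 (0.04), which fell in Klf5 siRNA embryos, did not pass in ESCs (lowest adjusted p 0.327). No member was called in both comparisons with edgeR as fitted here. With DESeq2 Txnip, Pgk1 and Gpi1 were called lower in both. With voom Hk2 and Ldhb were called in both, Hk2 lower and Ldhb higher in Klf5 siRNA embryos, and Hk2 higher and Ldhb lower in Klf5 ESCs. The ESCs grew on feeder cells, whose markers were also read. Of 9 fibroblast markers tested 1 rose with Klf5 (Col1a2, 1.72-fold, adjusted p = 0.0349). Of all genes tested in ESCs, 56.4% did not overlap between the groups, in either direction. Among the 9 fibroblast markers 6 were higher in both Klf5 libraries than in both GFP libraries, and Dcn was lower in both. The fitted folds of the 6 ran from 1.30 (Postn) to 1.84 (Col3a1), with Col1a1 at 1.58-fold, Pdgfrb at 1.62-fold and Thy1 at 1.31-fold. For comparison, Hk2 and Egln3 were higher by 1.79-fold and 1.58-fold. The sums over 10 markers were 4370 and 4845 CPM in Klf5 libraries and 4319 and 4400 CPM in GFP libraries, mostly from Fn1 and Vim, and over the other 8 they were 1122 and 1116 CPM in Klf5 libraries and 616 and 778 CPM in GFP libraries. Primitive endoderm markers summed to 104 and 240 CPM with Klf5 and to 39.9 and 45.2 CPM with GFP, with 2 of 7 called higher (Sox7 and Dab2). All 7 were higher in both Klf5 libraries than in both GFP libraries. Trophectoderm markers summed to 313 and 673 CPM with Klf5 and 896 and 1877 CPM with GFP, with none of 9 called. Among them 5 were lower in both Klf5 libraries than in both GFP libraries (Elf5, Gata3, Krt8, Krt18 and Krt7). Eomes and Tead4 were higher in both. Embryonic stem cell and epiblast markers summed to 5575 and 6215 CPM with Klf5 and to 4657 and 4813 CPM with GFP. None of these 8 was called, while 6 were higher in both Klf5 libraries than in both GFP libraries and 0 lower in both. The part of these shifts in the 3 calls was not tested.

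Isozyme shares in ESCs and embryos are set side by side here without a test, because the tables came from different kits and were scaled separately. Shares are per length and within a pair. Hk2 made up 49.6% and 51.6% of Hk1 plus Hk2 transcripts in the Klf5 libraries and 38.1% and 38.6% in the GFP libraries, and 86.2% to 99.9% in Klf5 siRNA embryos and 98.1% to 99.9% in scramble embryos. Slc16a3 made up 79.0% and 80.2% of Slc16a1 plus Slc16a3 with Klf5 and 77.7% and 80.0% with GFP, but at most 9.43% in Klf5 siRNA embryos and at most 1.53% in scramble embryos. Slc2a1 made up 59.6% and 61.1% of the 2 transporters with Klf5 and 54.7% and 57.0% with GFP, against medians of 18.8% and 5.79% in Klf5 siRNA and scramble embryos. Aldoa, Eno1 and Ldha were the leading forms of their steps in the median of every group. By length-scaled level (transcripts per 1e6, TPM) Gapdh was the highest member in every group, with a median of 998 TPM in Klf5 siRNA embryos, 1085 TPM in scramble embryos, 12443 TPM in Klf5 ESCs and 15647 TPM in GFP ESCs. Aldoa had medians of 247, 413, 6873 and 8112 TPM in the same groups in that order. Pkm, among the highest members in ESCs at 6887 TPM with Klf5 and 6727 TPM with GFP, had medians of 26.9 TPM in Klf5 siRNA embryos and 39.1 TPM in scramble embryos, below Slc2a3 at 48.7 and 108 TPM.

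Other genes of the pathways gave a background for the list. In embryos 73 of 94 such genes found in the tables were tested, of which 8 rose and 5 fell (17.8%, against 19.8% of all genes), with a median log2 fold change of 0.22. Errfi1, a feedback inhibitor of EGF receptor signalling induced by stress, stood at 0.560, 6.48 and 14.5 CPM in Klf5 siRNA embryos, against 31.6, 52.9 and 93.5 CPM in scramble embryos (−2.78 ± 0.46, adjusted p = 0.000482). Pgm2 (−1.91, adjusted p = 0.00303), a phosphopentomutase, and Pgam5 (−1.06, adjusted p = 0.00314), a mitochondrial phosphatase named for its likeness to Pgam1, also fell. Mpc2, a subunit of the mitochondrial pyruvate carrier, stood at 196, 260.3 and 1172 CPM in Klf5 siRNA embryos, against 57.2, 100.2 and 194 CPM in scramble embryos (1.90 ± 0.37, adjusted p = 0.00145). Mlx, a partner of the glucose-sensing factors that drive Txnip transcription, rose as well (1.51 ± 0.28, adjusted p = 0.00111). Fam162a (1.60, adjusted p = 0.00318) and Higd1a (1.37, adjusted p = 0.00428), mitochondrial proteins induced by low oxygen, rose too. Car12, a carbonic anhydrase gene, stood at 0, 3.77 and 33.5 CPM in Klf5 siRNA embryos, against 0, 0 and 1.06 CPM in scramble embryos (adjusted p = 0.00816). Of 19 other HIF targets tested, 4 rose and 1 fell.

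In ESCs 89 of the 94 were tested, of which 2 rose and 2 fell (4.49%, against 2.77% of all genes). Mpc1, the partner subunit of the pyruvate carrier, stood at 37.7 and 33.7 CPM in Klf5 libraries and at 15.5 and 15.6 CPM in GFP libraries (1.198 ± 0.14, adjusted p = 0.0286). Epas1, which encodes the second HIF alpha subunit, stood at 165 and 133 CPM with Klf5 and at 58.4 and 70.5 CPM with GFP (1.21 ± 0.15, adjusted p = 0.0286). Pfkfb2, a relative of Pfkfb3, stood at 6.53 and 5.14 CPM with Klf5 and at 15.2 and 11.1 CPM with GFP (−1.17 ± 0.23, adjusted p = 0.0496). Eno4, a divergent enolase, was at 0 in both Klf5 libraries and at 0.318 and 0.379 CPM in the GFP libraries (adjusted p = 0.0481). Without GFP 1 the ESC fit called 1 gene of all tested, and without GFP 2 it called 180, against 443 in all. Without Klf5 1 it called 502, and without Klf5 2 it called 980.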

How the data were processed

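The authors deposited 1 table for the ESCs and 1 for the embryos, holding unscaled estimated counts (also called expected counts) for each Ensembl gene. Per the submitters' processing notes the tool was kallisto 0.46 and the build mm10. How transcripts were summed to genes, the annotation release and any separation of feeder reads are not given in the sources used here. Per the labels' protocols, ESC libraries used TruSeq v2 reagents and embryo cDNA the SMARTseq-V4 kit.

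The 32 members, the list of 95 other pathway genes (94 found) and the tests were chosen with earlier results of these data known. Symbols and lengths (longest principal transcript) came from GENCODE M21 on GRCm38, the assembly of mm10, and matched 29831 of 30265 genes. For Vegfa that transcript has only 654 bases, so its per-length level is not given. Counts were rounded, which moved no library total by more than 0.000559%. In edgeR 4.0.16 each table was passed through filterByExpr (min.count 10), scaled by TMM and tested across all genes with robust quasi-likelihood F tests, adjusted by Benjamini and Hochberg, at a threshold of 0.05. The tables were scaled separately and never tested against each other. Fold changes are fitted values, CPM use TMM-scaled totals, and TPM were computed here from counts and lengths. The common biological coefficient of variation was 0.163 in ESCs (2 residual degrees of freedom) and 0.739 in embryos (14). The floor for an undetected gene, 3 counts, was 0.0800 to 0.112 CPM in ESCs and 0.120 to 0.204 CPM in embryos, and covers counting error only. Isozyme ratios are log2 of (count + 1) over (count + 1), tested by exact permutation over 9 pairs, and in ESCs 2 against 2 libraries cannot go below p = 0.333.

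All members are described, and those past the threshold in full. Of the other pathway genes, up to 8 past the threshold with the smallest p per comparison are named. Near-identical copies were found with minimap2 2.31 (at least 95% identity over 300 bases). Promoters came from RefSeq on GRCm38.p6, with 30 of 32 members matched. Alternatives were RLE and upper quartile scaling, DESeq2 1.42.0, limma 3.58.1 voom with and without quality weights, no filter, a 5 CPM filter, a test against 1.5-fold, a length offset (lowess span 0.3), library covariates, libraries left out, and replicate numbers as a block. Summing members with their copies, a crossed pairing of ESC libraries and isozyme ratios without Klf5 siRNA embryos 2 and 4 were chosen after seeing the data. The edgeR fit was also run on simulated counts with few changed genes and no embryos set apart. That setting differs from these data, and its outcome is not used here. No sample was left out of the main fits.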

Additional observations from a re-analysis of the deposited data

Results flagged for a closer look

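Of 56 groups of embryo values checked with Dixon's test, 4 held a value far from the others of its group, and chance flags about 1 group in 20. Gapdh stood at 469.8 CPM in Klf5 siRNA embryo 2, against 1163 to 1910 CPM in the other 5. Ldha stood at 3.71 CPM in scramble embryo 10, against 17.8 to 89.7 CPM in the other 9. Egln1 stood at 218 CPM in scramble embryo 3, against 139.9 to 170.4 CPM in the other 9. P4ha1 stood at 1.31 CPM in scramble embryo 6, against 4.40 to 14.9 CPM in the other 9. Without scramble embryo 3 Egln1 missed the threshold (edgeR adjusted p = 0.0595). Gapdh without Klf5 siRNA embryo 2 (edgeR adjusted p = 0.678), Ldha without scramble embryo 10 (edgeR adjusted p = 0.178) and P4ha1 without scramble embryo 6 (edgeR adjusted p = 0.172) did not pass it.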

How the results depend on the processing

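No member that passed the threshold changed its direction under any alternative. In ESCs 3 members were called (443 of all genes). The count was 6 with DESeq2 (1435 of all genes), 0 in the test against 1.5-fold (1 of all genes), 870 of all genes without a filter and 281 with voom, and 0 to 3 members when a library was left out (1 to 980 of all genes). With the replicate block 0 members were called (149 of all genes). The deviations of same-numbered ESC libraries had a correlation of −0.108. With 2 libraries per group the crossed pairing takes the opposite sign by construction, so this value cannot show which pairing holds. With the crossed pairing as block, chosen after seeing the data, 8 members and 1467 genes were called. In embryos 10 members were called (2448 of all genes). The count was 4 in the test against 1.5-fold (945 of all genes) and 8 to 11 when an embryo was left out. With the replicate block, which can use 12 embryos, it was 4 (902 of all genes), and in those 12 embryos with no replicate block 6 (1423 of all genes). Correlations of same-numbered embryos ran from −0.114 to 0.108, so the numbers were not taken to pair embryos. Txnip and Slc16a1 were called under every alternative. Slc2a1 was also lost with voom (adjusted p = 0.0575) and with quality weights (0.0742). In the test against 1.5-fold Slc2a1 (0.117), Egln1 (0.185), Gpi1 (0.0926), Hif1a (0.0759), Pgam1 (0.467) and Pgk1 (0.1198) were lost. Hif1a and Egln1 were also lost with the length offset (0.0762 and 0.159), and Vegfa, Ndrg1, Pgk1, Pgam1, Egln1 and Slc2a1 in the replicate block. Of the genes lost in the block, Vegfa, Pgam1, Egln1 and Slc2a1 were lost in those 12 embryos with no block as well. Of the isozyme ratios 1 passed, against 4 with a pseudocount of 10, 0 without Klf5 siRNA embryos 2 and 4 (chosen after seeing the data), 0 with the replicate block (signs permuted within pairs, where the smallest possible p is 0.03125), and 1 to 2 when an embryo was left out (2 without Klf5 siRNA embryo 6). The cause of these differences was not tested, except that the 1.5-fold test asks for a larger change. The median log2 fold change of all embryo genes moved to 0.105 with DESeq2, −0.118 with voom and −0.126 with the replicate block, while that of the members stayed between −1.05 and −0.48 over all alternatives. Low counts limit Vegfa, Hk1, Aldoc, Ddit4 and the 4 members not tested in embryos.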
